A study of Mus musculus with 2 samples.

Results

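The stromal cells described here are barcodes among sorted lung leukocytes that held RNA of non-haematopoietic cells. Some also held leukocyte RNA, described below, and whether each was a single non-haematopoietic cell was not tested. They were chosen by their own measured RNA. A barcode was taken as a stromal cell when it held 10 or more unique molecular identifiers (UMIs, each marking 1 captured transcript) of the matrix genes Sparc, Mgp, Igfbp7, Col1a1, Col3a1 and Dcn together, and when these made up 0.2% or more of its UMIs. Of the 8451 barcodes that passed quality filters in both libraries, 56 were stromal cells. They were split by the larger of a fibroblast sum (Col1a1, Col3a1 and Dcn) and an endothelial sum (Pecam1, Cldn5 and Cdh5) into 37 fibroblast-like and 19 endothelial-like cells. The 9 genes of these sums selected the cells, so their levels are given as a description and support nothing.

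Live CD45+ cells of the lungs of wild type C57BL/6N mice were profiled with the BD Rhapsody microwell system. The BLM library came from mice taken at day 15 after 50 µg of bleomycin, which damages lung tissue and brings on scarring, given into the trachea at 10 to 16 weeks of age. The naïve library came from untreated mice. Each library was a pool of cells of 3 mice with no map from cell to mouse, so there was 1 library per group and no test between groups. All intervals below are 95% exact counting intervals, which cover counting error only and neither mice nor library preparation. Treatment, mouse pool and library cannot be told apart.

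Fibroblasts build and remodel the collagen and elastic matrix of the lung. Adventitial fibroblasts lie in the cuffs around vessels and airways, alveolar fibroblasts lie in the gas exchange walls, and after injury some fibroblasts take up contractile and matrix-making programmes as myofibroblasts. Lung endothelium lines arteries, veins, lymphatics and 2 kinds of capillary cell, the general capillary cell and the aerocyte, which is thin and lies at the site of gas exchange. None of these cells makes CD45, the leukocyte surface protein encoded by Ptprc, on which the cells were sorted.

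The 36 stromal cells of the BLM library were 0.795% of its 4526 passing barcodes (0.558% to 1.10%). The 20 stromal cells of the naïve library were 0.510% of 3925 (0.312% to 0.786%). The log2 ratio of these shares was 0.64, with an interval from -0.18 to 1.51, so the shares were not separated beyond counting error under this rule. Under a looser rule of 5 or more UMIs and 0.1% the log2 ratio was 0.79 with an interval from 0.0062 to 1.62, which excludes 0 by a small margin, so the call depends on the limit. Because the sort was meant to remove such cells, these shares describe the sorted suspension and not the lung. Fibroblast-like cells were 25 of the 36 stromal cells of the BLM library (69.4%, 51.9% to 83.7%) and 12 of the 20 of the naïve library (60%, 36.1% to 80.9%). The other 11 and 8 were endothelial-like.

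Stromal cells were deep relative to the rest of the suspension. The BLM fibroblast-like cells had a median of 6935 UMIs and ranged from 498 to 25333, and the naïve ones had a median of 4929 and ranged from 794 to 10789. The median was 7479 in the BLM endothelial-like cells and 6531 in the naïve ones, against 2427.5 and 2749 in all other barcodes of the BLM and naïve libraries. The 3 deepest BLM fibroblast-like cells gave 33.0% of the UMIs of their class, so summed values lean on few cells. The libraries shared 22 barcode numbers, and 1 stromal cell over both libraries carried such a number.

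The fibroblast-like cells lay well inside the limit on the share, and many endothelial-like cells lay near it. The selecting genes had a median of 67.5 UMIs in BLM stromal cells and 97 in naïve stromal cells, and 0 in the other barcodes of either library. Just inside the limit on UMIs, 3 BLM and 2 naïve members had 10 to 15 of these UMIs. Among them 1 BLM fibroblast-like cell, with 498 UMIs in all, had 10. The share of UMIs from these genes was under 0.4% in 6 of 11 BLM and 4 of 8 naïve endothelial-like cells, and in 0 fibroblast-like cells, whose lowest share was 0.810%. With 20 or more UMIs and 0.5% as the rule, 3 BLM and 2 naïve endothelial-like cells were left, against 24 and 12 fibroblast-like cells. Just outside it, 2 BLM and 1 naïve barcodes had 5 to 9 of them at a sufficient share, and 3 BLM and 1 naïve barcodes had 10 or more at too small a share. The quality filter removed 0 BLM and 3 naïve barcodes that otherwise met the rule. The rule asks for matrix genes, so an endothelial cell low in them would not be taken in. Outside the rule, 53 BLM barcodes and 59 naïve barcodes held 10 or more UMIs of 22 endothelial markers. Whether these were endothelial cells was not tested.

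**Figure D1:**
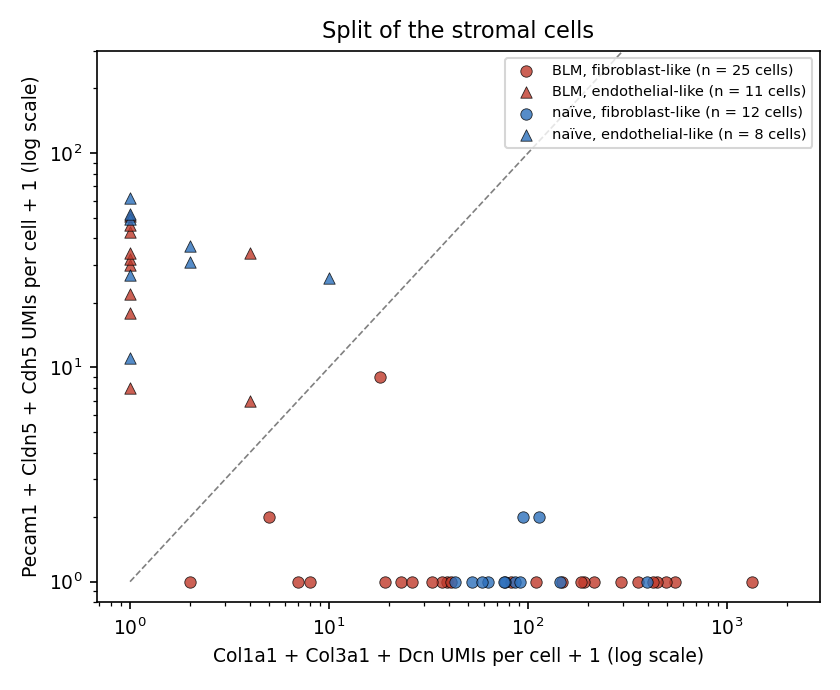
Each point is 1 of the 56 stromal cells, with the summed UMIs of the 3 fibroblast genes on the x axis and of the 3 endothelial genes on the y axis, 1 added to each and both axes logarithmic; the dashed line marks equal sums. Most cells lie along an axis, and 3 of the 56 cells had sums within 3-fold of each other.

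Most cells held UMIs of only 1 of the sums that divided them. No cell had equal sums, 23 of 25 BLM and 10 of 12 naïve fibroblast-like cells had no UMI of the 3 endothelial genes, and the highest sum among the others was 8. Of the endothelial-like cells, 2 of 11 in the BLM and 3 of 8 in the naïve library held UMIs of the fibroblast genes, with at most 3 and 9. The lowest sum that placed a cell was 1 UMI, in a BLM fibroblast-like cell with 4251 UMIs in all. Other markers of the labels are given as a description, since the same cells were divided by RNA content. In the BLM library, all 21 endothelial markers with enough counts to rank were at least 2-fold lower in fibroblast-like than in endothelial-like cells with intervals below 0, among them the 3 of the rule. Of 14 fibroblast markers 13 were higher in the fibroblast-like cells. In that comparison 16.3% of 2994 ranked genes were higher in the fibroblast-like cells (487 genes) and 14.8% were lower (442 genes). For a gene to be ranked, the sides had to hold 20 or more UMIs together and 10% of the cells of the higher side had to hold it, and it was called when its interval excluded 0 and the ratio was 2-fold or more.

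Leukocyte RNA was low in these cells. Ptprc had 11 UMIs in the BLM fibroblast-like cells, in 10 of 25 cells, which was 51.5 CPM (CPM is UMIs per 1000000 UMIs of the same cells, with an interval from 25.7 to 92.2). All other BLM barcodes had 938 CPM of Ptprc and the B-like barcodes 1167. The naïve fibroblast-like cells had 77.2 CPM from 5 UMIs. Endothelial-like cells had 75.3 CPM in the BLM library and 76.1 in the naïve library. Over 13 leukocyte markers the sum was 848 CPM in BLM and 1266 CPM in naïve fibroblast-like cells and 1538 CPM in BLM endothelial-like cells, against 16051 CPM in all other BLM barcodes. Cd37 had no UMI in either BLM class. The naïve endothelial-like cells summed to 5271 CPM, of which 60.3% came from 1 cell with 167 leukocyte marker UMIs.

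The erythroid genes had 0 UMIs in all 4 classes, and over 14 epithelial markers the sum ranged from 15.4 CPM in naïve fibroblast-like to 476 CPM in naïve endothelial-like cells. The part that RNA of other cells, free or from a joined cell, played in any value below was not tested.

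**Figure D2:**
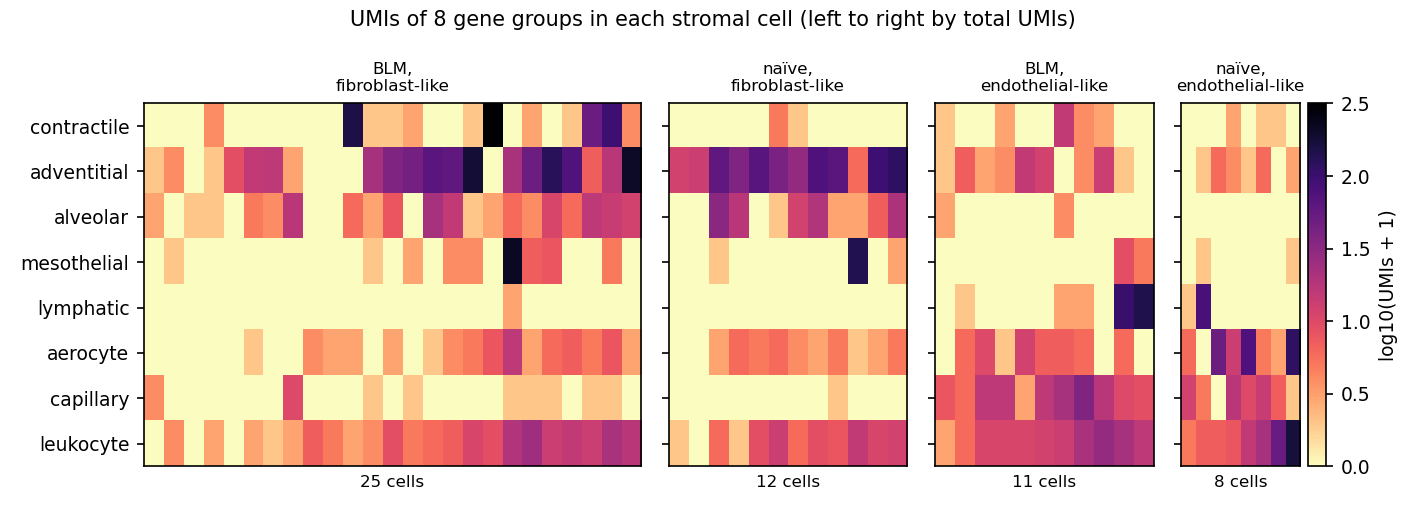
Each column is 1 stromal cell, ordered within its class and library from few to many total UMIs, each row is a gene group and the colour is log10 of its UMIs plus 1. Contractile UMIs reach 50 or more in 4 of 25 BLM fibroblast-like cells and none of 12 naïve ones, and the lymphatic row stands out in 2 of 11 BLM and 1 of 8 naïve endothelial-like cells.

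Fibroblast-like cells held several kinds of cell. Adventitial genes (Pi16, Clec3b, Dpt and Cd34) reached 10 or more UMIs in 14 of 25 BLM cells and in 11 of 12 naïve cells. Alveolar genes (Tcf21, Npnt, Inmt and Ces1d) did so in 7 BLM and 5 naïve cells, and 5 cells in each library did so for both groups. These counts move with depth, and the BLM cells had the higher median depth, given above, and also the shallowest cell. Mesothelial markers, genes of the lining of the lung surface such as Msln and Upk3b, reached 211 UMIs in 1 BLM cell and 138 in 1 naïve cell, and at most 7 in the others.

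Contractile genes were concentrated in a few BLM cells. The sum of Acta2, Tagln, Myl9, Des, Cnn1 and Myh11 was 308, 151, 97 and 50 UMIs in 4 BLM cells and at most 3 in the other 21. In the naïve cells it was at most 4. Of these 4 cells, 1 also had 10 or more adventitial UMIs and 2 had 10 or more alveolar UMIs. The highest cell gave 49.7% of the 620 contractile UMIs of the class. Between the libraries, 4 of 6 ranked pericyte and smooth muscle genes were higher in BLM cells (Actc1, Des, Lmod1 and Mcam). Abcc9 was lower, and the median log2 ratio was 1.62. Of 10 ranked genes of myofibroblasts and activated fibroblasts, 7 were higher and 1 lower, with a median of 3.12. Over all ranked genes 8% were higher and 6.83% lower. Whether the 4 cells were myofibroblasts or smooth muscle cells was not tested.

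Acta2, the smooth muscle actin of both myofibroblasts and smooth muscle cells, had 247 UMIs in 8 BLM cells and 3 UMIs in 1 naïve cell. That was 1157 CPM (1017 to 1311) against 46.3 CPM (9.56 to 135), a log2 ratio of 4.64 (3.08 to 6.93). Tagln, which encodes an actin-binding protein of the same apparatus, had 193 UMIs in 5 cells against 1. Des, the intermediate filament desmin, had 44 against 0, which was at least 4.45-fold higher when the naïve value was set to a floor of 3 counts over the group. Tpm1, an actin filament tropomyosin, had 262 UMIs in 19 of 25 cells against 10 in 7 of 12 (log2 ratio 2.99, 2.09 to 4.07), and the 4 contractile cells held 74.0% of its BLM UMIs. All 4 genes rest largely on these cells. Without the cells holding 10 or more contractile or mesothelial marker UMIs (20 BLM and 11 naïve cells left), the log2 ratio of Acta2 was -0.28 and that of Tpm1 was 1.30 (0.27 to 2.51), and Tagln and Des had 2 BLM UMIs each. That setting, like the others below that leave out or keep cells by marker UMIs except the one on Ptprc, was chosen after the values were seen.

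The promoters of contractile genes are shown because these genes were high in the same few cells and serum response factor is known to bind their CArG boxes. Of 11 contractile genes looked up, 9 had a RefSeq promoter entry (GRCm38.p6, 250 bases before to 50 after the start). The search on both strands was for CCWWWWWWGG, where W is A or T, and allowed no mismatch. By this pattern 2 of the 9 held a CArG box, while 1.63% of 32851 promoters did. These were Myl9, a myosin light chain with 81 UMIs in 7 BLM cells and 0 in naïve cells (at least 8.19-fold higher), and Actc1, the cardiac actin with 32 UMIs in 3 BLM cells against 1 and a log2 ratio of -0.15 without its top cells. Actc1 and Acta2 are close paralogs, so the division of reads between them is uncertain. Below are the 250 bases before the start, with the box in capitals at position -161 in Myl9 and -47 in Actc1, counted from the start. Acta2 is shown beside them as the smooth muscle actin described above, and had no exact match in its window. It does hold ccctatatgg and ccttgtttgg, each 1 letter away from the pattern, which the search did not count. A match is a description of the letters, not a site in use. Myl9 lies on the plus strand at chr2:156775214-156775463, Actc1 on the minus strand at chr2:114052876-114053125 and Acta2 on the minus strand at chr19:34255374-34255623.
Myl9: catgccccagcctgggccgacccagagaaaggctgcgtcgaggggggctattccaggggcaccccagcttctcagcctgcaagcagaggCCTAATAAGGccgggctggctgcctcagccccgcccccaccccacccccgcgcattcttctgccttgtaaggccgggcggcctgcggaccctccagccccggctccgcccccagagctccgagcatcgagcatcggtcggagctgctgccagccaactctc
Actc1: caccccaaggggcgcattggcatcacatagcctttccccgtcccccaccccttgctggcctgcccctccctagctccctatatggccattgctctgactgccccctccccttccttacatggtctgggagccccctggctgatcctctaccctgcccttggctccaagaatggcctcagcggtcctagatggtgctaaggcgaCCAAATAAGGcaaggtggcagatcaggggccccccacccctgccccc
Acta2: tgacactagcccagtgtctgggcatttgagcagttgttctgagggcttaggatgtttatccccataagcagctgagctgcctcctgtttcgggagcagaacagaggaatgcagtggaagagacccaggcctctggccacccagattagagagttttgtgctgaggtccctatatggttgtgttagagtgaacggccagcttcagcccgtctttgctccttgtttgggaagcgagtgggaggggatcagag

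Between BLM and naïve fibroblast-like cells, 8% of 2575 ranked genes were called higher in the BLM library (206 genes, of which 17 had 0 naïve UMIs) and 6.83% were called lower (176 genes). The median log2 ratio of the ranked genes was 0.057. Counts of listed genes called higher or lower below stand against these shares of 8% and 6.83%. Serpina3n, Timp1, Cxcl12, Fn1 and Igfbp4 were among the genes called higher, and Gsn, Cd34, Fos and Zfp36 among those called lower. Without the cell with the most UMIs of a gene on each side, 186 genes were called higher and 98 lower. The filter on low counts was applied to the UMIs that were left, and why fewer genes were called lower was not tested.

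Serpina3n, a secreted serine protease inhibitor raised in many tissues by inflammation, was spread over most BLM cells (gene at chromosome 12, 104406729 to 104414329, GENCODE). It had 561 UMIs in 22 of 25 BLM cells and 14 UMIs in 5 of 12 naïve cells. Levels per cell ran from 0 through a median of 1546 to 6829 CPM in the BLM library, and from 0 through a median of 0 to 649 CPM in the naïve library. The naïve cells all lay below the BLM median, and the 2 sets overlapped. The summed level was 2629 CPM (2416 to 2855) against 216 CPM (118 to 363), a log2 ratio of 3.60 (2.84 to 4.48). With each cell thinned to 1000 UMIs, 73.6% of 21 BLM cells and 14.5% of 11 naïve cells kept a UMI. Only 0.208% of B-like BLM barcodes, which should lack the gene, had a UMI at a median of 1976 UMIs.

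Timp1, an inhibitor of matrix metalloproteinases, had 198 UMIs in 18 of 25 BLM cells and 5 UMIs in 3 of 12 naïve cells. It was less evenly spread than Serpina3n, with 63.1% of its BLM UMIs in 2 cells against 44.7% for Serpina3n. The median cell had 433 CPM in the BLM library and 0 in the naïve library, and the highest cells had 5760 and 480 CPM, so the highest naïve cell lay above the BLM median. The log2 ratio of the sums was 3.59 (2.34 to 5.23). In cells with 10 or more adventitial UMIs (14 BLM, 11 naïve) the log2 ratio was 3.65 for Timp1 and 3.52 for Serpina3n. Both ratios were about as large within that set of cells. In the BLM library it included the cell with 97 contractile UMIs, which held 66 of the Timp1 UMIs, and the cell with 211 mesothelial UMIs. How far the mix of cell kinds set these ratios was not tested.

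**Figure D3:**
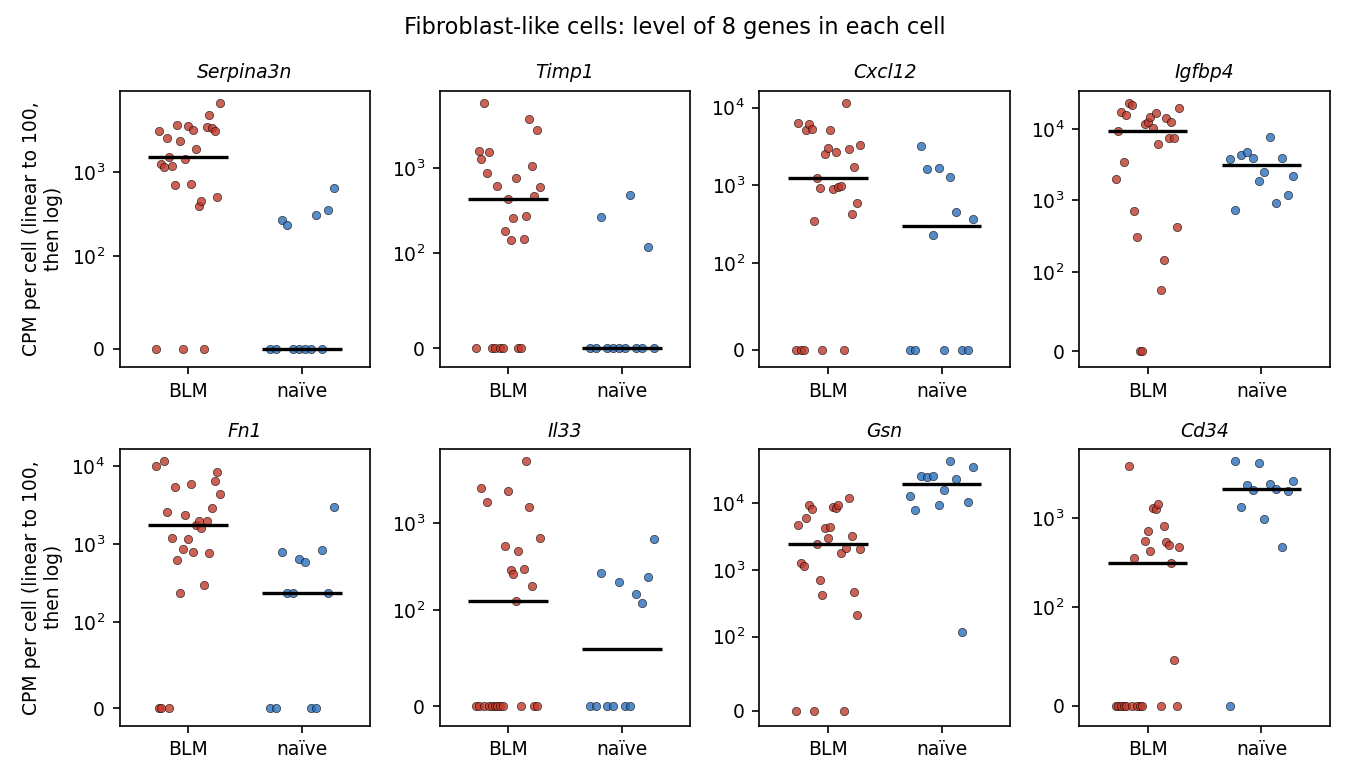
Each point is 1 fibroblast-like cell (25 BLM, 12 naïve) and the y axis is its CPM, linear to 100 and logarithmic above; black lines are medians over cells. Serpina3n and Timp1 have a naïve median of 0 and BLM medians of 1546 and 433 CPM, while Gsn has a BLM median of 2476 and a naïve median of 19254 CPM.

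Of 24 chemokines, cytokines and alarmins, 12 could be ranked, and 5 were higher and 1 lower in the BLM cells, with a median log2 ratio of 0.72 against 0.057 over all ranked genes. Cxcl13, the B cell attracting chemokine, had 360 UMIs in only 6 BLM cells, 47.2% of them in 1 cell, against 1 naïve UMI. Cxcl12, which holds and attracts many leukocytes, had 520 UMIs in 20 BLM cells against 43 in 7 naïve cells (log2 ratio 1.88, 1.43 to 2.36). Cxcl14 and Cxcl2 were the other chemokines called higher, with log2 ratios of 2.72 and 2.82. Ackr3, a scavenging receptor for Cxcl12, was lower at -1.07. Il6 was not called, at 147 UMIs against 43 and a log2 ratio of 0.053 (-0.45 to 0.58).

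Il33, an alarmin of stromal nuclei that acts on ILC2 and regulatory T cells through the receptor encoded by Il1rl1, was called higher in the BLM fibroblast-like cells (gene at chromosome 19, 29925114 to 29960718). It had 158 UMIs in 13 of 25 BLM cells and 13 UMIs in 6 of 12 naïve cells, so the share of cells with a UMI was 52% and 50%. Levels per cell had a median of 127 CPM and a highest value of 5121 CPM in the BLM library, and 59.3 and 649 CPM in the naïve library. The log2 ratio of the sums was 1.88 (1.07 to 2.82), and 48.1% of the BLM UMIs came from 1 cell. Without the top cell on each side it was 1.89. The endothelial-like cells had 6 Il33 UMIs in 2 BLM cells and 0 in naïve cells. Il33 in all other barcodes was 0.779 CPM in the BLM and 0.341 CPM in the naïve library. Il1rl1 had 0 UMIs in the fibroblast-like cells of both libraries, and Tgfb1 had 1 UMI in all 37 of them.

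Matrix genes moved both ways. Leaving out the 4 selecting genes in the list, 6 of 24 ranked matrix glycoproteins and proteoglycans were higher and 5 lower, with a median log2 ratio of 0.027. The shares over all ranked genes were 8% higher and 6.83% lower. Fn1, fibronectin, had 708 UMIs in 22 BLM cells against 52 in 8 naïve cells (log2 ratio 2.05, 1.64 to 2.48). Thbs1, thrombospondin, had 284 UMIs against 5, of which 58.8% came from 1 BLM cell. Eln, elastin, was called higher at 1.01, but 55.7% of its UMIs were in 1 cell and the log2 ratio without the contractile and mesothelial marker cells was 0.062. Tnc, a tenascin of remodelling tissue, had 92 UMIs in 6 BLM cells against 0. Of these 67.4% were in 1 cell, and without the contractile and mesothelial marker cells 5 UMIs were left, too few to rank. On the lower side, Lum and Fbln1, a small proteoglycan and a fibulin, had log2 ratios of -1.61 and -1.57.

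Among 14 ranked collagens, Col5a2, Col4a1 and Col4a2 were called higher (log2 ratios 1.91, 1.47 and 1.13) and Col15a1 lower (-2.35). The fibrillar collagens Col1a1 and Col3a1 chose the cells and had log2 ratios of 0.82 and 0.47, short of 2-fold. Col1a2, which the rule did not use, had 1947 UMIs against 434 and a log2 ratio of 0.44 (0.29 to 0.60), also short of 2-fold. With each cell given equal weight, also chosen after the values were seen, Col1a1 was 0.30 and Col3a1 was -0.19. Lox, which crosslinks collagen and elastin, was the 1 gene called of 12 ranked collagen-processing genes (log2 ratio 1.81, 1.09 to 2.62), while the collagen chaperone Serpinh1 was at 0.18. That count was close to the 8% called higher over all ranked genes.

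Growth factor binding proteins were among the better counted genes. Igfbp4, which binds insulin-like growth factors, had 1862 UMIs in 23 of 25 BLM cells against 200 in 12 of 12 naïve cells, and its summed CPM was 2.82-fold higher (log2 interval 1.29 to 1.72). Igfbp5 had 488 UMIs in 12 cells against 27 in 3, with 52.0% of the BLM UMIs in 1 cell and a log2 ratio of 2.45, which was 0.79 in the cells without a Ptprc UMI. Igfbp6 was lower (-1.54). Vcam1, an adhesion receptor for leukocytes, had 103 UMIs in 17 cells against 9 in 6, and its summed CPM was 3.47-fold higher (log2 interval 0.82 to 2.96). Of 14 ranked TGF-beta pathway genes 1 was higher and 5 were lower, against 8% and 6.83% of all ranked genes. Cyr61 was at 1.21, and Tgfbi, Ltbp4, Tgfb3, Ctgf and Tgfbr3 were at -4.12, -1.62, -1.72, -1.31 and -1.08. Ctgf was at 0.24 in the cells without a Ptprc UMI.

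**Figure D4:**
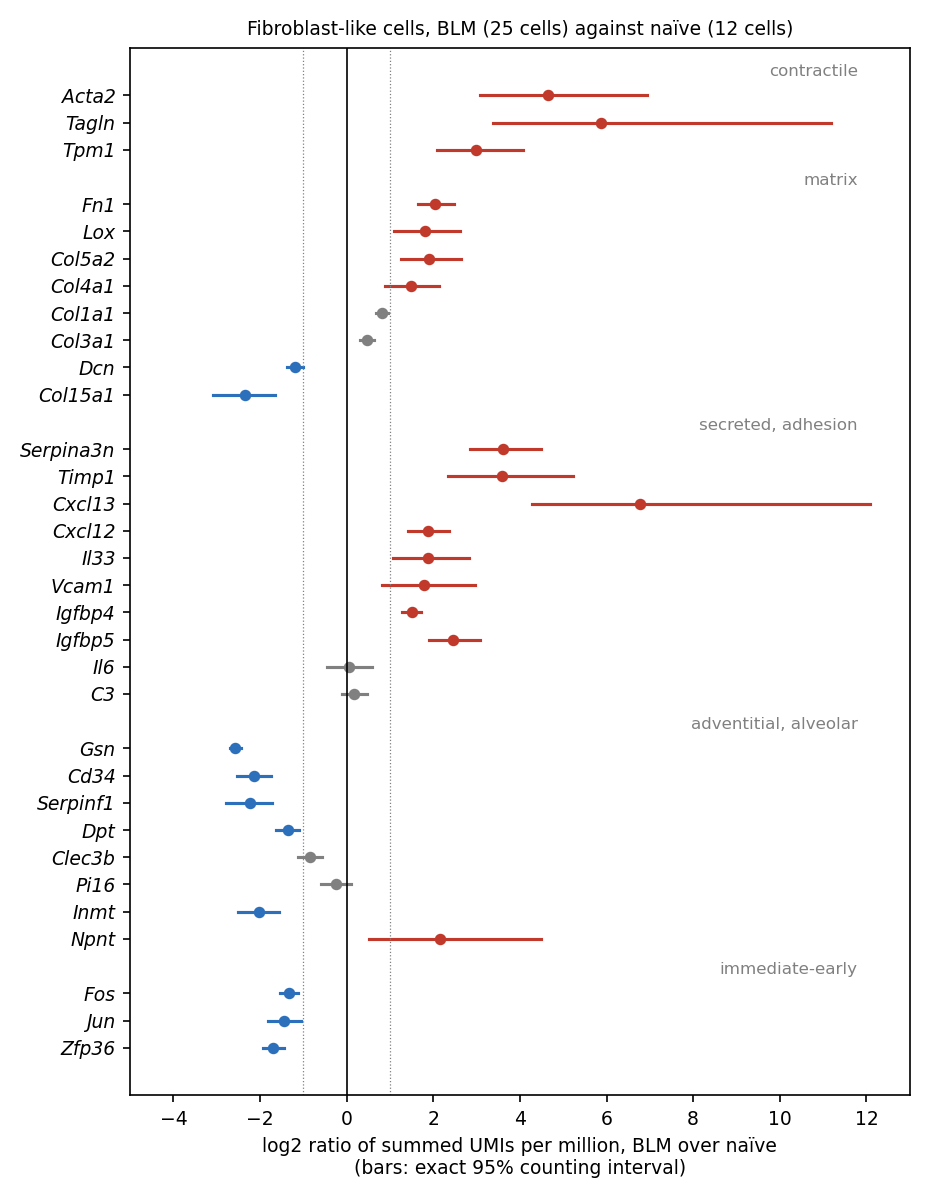
Points are log2 ratios of summed CPM, BLM over naïve, for 32 genes in fibroblast-like cells, bars are 95% exact counting intervals and dotted lines mark 2-fold; red is called higher, blue called lower and grey not called. Gsn has a narrow interval at -2.57, and Cxcl13 a wide interval at 6.77 because it rests on 1 naïve UMI.

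Gsn, gelsolin, which severs actin filaments, was the best counted gene on the lower side (chromosome 2, 35256380 to 35307892). It had 738 UMIs in 22 of 25 BLM cells and 1328 UMIs in 12 of 12 naïve cells. Levels per cell had a median of 2476 CPM and ran from 0 to 11923 CPM in the BLM library, and had a median of 19254 CPM and ran from 119 to 41927 CPM in the naïve library. The highest BLM cell was thus below the naïve median, and the lowest naïve cell lay among the low BLM cells. The log2 ratio of the sums was -2.57 (-2.70 to -2.44), and it was -2.47 within cells with 10 or more adventitial UMIs. It lay outside that interval at -2.36 with each cell given equal weight and at -2.21 without the contractile-marker and mesothelial-marker cells. In the cells without a Ptprc UMI it was -1.66. The summed level was 117 CPM in the other BLM barcodes and 78.7 CPM in the other naïve barcodes.

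Leaving out the selecting gene Dcn, 5 of 13 ranked adventitial genes were lower and 2 higher, with a median log2 ratio of -0.53. Cd34, a surface sialomucin of adventitial progenitors and endothelium, had 100 UMIs in 14 of 25 BLM cells against 133 in 11 of 12 naïve cells (log2 ratio -2.13, -2.52 to -1.75). Serpinf1 and Dpt, a secreted serpin and a matrix protein, had log2 ratios of -2.24 and -1.36, and Dpt was at -0.79 in the cells without a Ptprc UMI. Pi16 and Clec3b, which also mark these cells, were not called, at -0.25 and -0.84. The smaller share of BLM cells with adventitial genes, given above, moved with these values, and its part in them was not tested. Of 7 ranked alveolar genes, Npnt and Limch1 were called higher (2.15 and 2.24) and Inmt lower (-2.03). Without the contractile-marker and mesothelial-marker cells Npnt was at 0.83 (-1.03 to 3.29) and Limch1 at 1.25 (-0.13 to 2.98), so neither kept its call, and in the cells without a Ptprc UMI Inmt was at 0.0085.

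Immediate-early and heat shock genes, which cell dissociation is known to raise, differed on 1 side. Of 19 ranked, 8 were lower in the BLM cells and 1, Ier3, was higher, with a median log2 ratio of -0.93. Fos had 447 UMIs in 16 of 25 BLM cells against 339 in 9 of 12 naïve cells, a log2 ratio of -1.32 (-1.53 to -1.11). Zfp36, which destabilises inflammatory mRNAs, was at -1.69, Jun at -1.44 and Hspa1a at -3.11. Hspa1a was at -0.90 without its top cells. In the cells without a Ptprc UMI (15 BLM, 7 naïve) Fos was at 0.068, Zfp36 at -0.028 and Jun at -0.23, with all 3 intervals including 0, while Hspa1a was at -4.10. How each suspension was handled and how these genes differed cannot be told apart.

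Some differences moved with the RNA of other cells. Igkc, an immunoglobulin light chain made by B and plasma cells, had 4 UMIs in the BLM and 24 UMIs in the naïve fibroblast-like cells, and all other barcodes had 1130 CPM in the BLM and 3201 CPM in the naïve library. Spp1, osteopontin, a secreted matrix and macrophage product, had 32 UMIs in 10 BLM cells against 1 naïve UMI, while all other barcodes had 3313 CPM in the BLM and 106 CPM in the naïve library. The share of cells with a UMI of Spp1 was 40% in BLM fibroblast-like cells, at a median of 6935 UMIs. In B-like BLM barcodes it was 21.4%, at a median of 1976 UMIs. These depths were unlike, and whether the fibroblast-like cells made this Spp1 was not tested. Complement genes, many of which fibroblasts make, differed little. Of 10 ranked, C1ra was higher (1.17) and Cd55 lower (-1.24), near the 8% and 6.83% over all ranked genes. C3 was at 0.17 (-0.11 to 0.46).

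Within the BLM library, fibroblast-like cells held the complement and much of the cytokine RNA of the stromal cells. C3 had 491 UMIs in 19 of 25 fibroblast-like cells and 0 in 11 endothelial-like cells, at least 71.3-fold higher. Sod3, extracellular superoxide dismutase, had 593 UMIs against 1. Il6 had 147 UMIs against 0, and Serpina3n 561 against 19 (log2 ratio 3.69, 3.03 to 4.43). Cxcl12 differed less, at 1.11 (0.80 to 1.43). Of 12 complement genes, 10 could be ranked and 8 were higher in the fibroblast-like cells, against 16.3% of all ranked genes.

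On the endothelial-like side of the BLM library, Lyve1, a hyaluronan receptor, had 179 UMIs in 8 of 11 endothelial-like cells against 1 UMI in the fibroblast-like cells. Cd36, a fatty acid transporter of capillaries, had 248 UMIs in 9 cells against 5 (log2 ratio of fibroblast-like over endothelial-like -6.83, -8.47 to -5.59). Fabp4, a fatty acid carrier, had 144 UMIs against 3, but 83.3% of them were in 1 cell. Mmrn1 and Ccl21a, genes of lymphatic endothelium, had 94 and 59 UMIs, each in 2 cells, against 0. Of 13 listed cell cycle genes 4 could be ranked, and all 4 were lower in the fibroblast-like cells, against 14.8% of all ranked genes. Among them Pcna was at -2.34 and Mcm6 at -5.45. The 3 deepest BLM endothelial-like cells gave 51.8% of the UMIs of their class. Whether any of these cells were dividing was not tested.

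Between the 11 BLM and 8 naïve endothelial-like cells, the number of cells was under 10 on 1 side, so values are given without counts of called genes. Several kinds of endothelial cell were present. Lymphatic genes (Prox1, Mmrn1, Ccl21a, Flt4 and Reln) summed to 143 and 101 UMIs in 2 BLM cells and 81 in 1 naïve cell, and to at most 2 in the others. Genes of general capillary cells (Gpihbp1, Plvap, Aplnr and Cd93) reached 10 UMIs in 6 of 11 BLM and 3 of 8 naïve cells. Aerocyte genes (Car4, Ednrb, Fibin and Emp2) reached 10 UMIs in 1 of 11 BLM cells, with 11, and in 4 of 8 naïve cells, with up to 115.

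Aerocyte genes were lower in the BLM endothelial-like cells. Car4, a carbonic anhydrase of the capillary surface, had 10 UMIs in 6 of 11 BLM cells and 65 UMIs in 6 of 8 naïve cells. Its levels per cell had a median of 102 CPM and a highest value of 745 CPM in the BLM library, and 665 and 2948 CPM in the naïve library. The log2 ratio was -3.52 (-4.65 to -2.55), and -2.11 without the lymphatic-marker cells and the cell richest in leukocyte markers in each library. Ednrb, an endothelin receptor, and Emp2, a membrane protein, had log2 ratios of -3.46 and -2.98, and without those cells -2.51 and -1.77. Kdr, the main VEGF receptor, was at -1.45, and at -0.74 without those cells. How far the mix of cell kinds set these values was not tested.

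On the higher side, Lrg1, a secreted glycoprotein of inflamed and venous endothelium, had 73 UMIs in 7 of 11 BLM cells and 2 UMIs in 1 of 8 naïve cells. The log2 ratio was 4.37 (2.46 to 7.44), and 54.8% of the BLM UMIs came from 1 cell. Without the lymphatic-marker cells and the cell richest in leukocyte markers in each library Lrg1 had 14 UMIs against 0, at least 3.89-fold higher. The BLM cell left out for leukocyte markers held 40 of the 73 Lrg1 UMIs. Its 27 leukocyte marker UMIs were 0.22% of its UMIs, against 1.41% in the naïve cell left out. Fn1 had 27 UMIs in 8 BLM cells and 0 in naïve cells. Col4a1, a basement membrane collagen, was at 1.24 (0.74 to 1.76), in the same direction as in the fibroblast-like cells. Flt4, a receptor of lymphatic endothelium, had 41 UMIs in 4 BLM cells against 2, and Selp, an adhesion receptor for leukocytes, had 22 UMIs of which 90.9% came from 1 cell. The general markers that chose the class were at -1.17 for Cldn5, -0.54 for Pecam1 and -0.20 for Cdh5.

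MHC class II genes were high in 1 naïve endothelial-like cell. Cd74, the class II chaperone, had 9 UMIs in the BLM and 189 UMIs in the naïve endothelial-like cells, 88.9% of them in 1 cell. H2-Ab1 and H2-Eb1, class II chains, had 87.3% and 89.9% of their naïve UMIs in 1 cell. Mgl2 and Cd209a, lectins of dendritic cells and macrophages, had 40 and 36 naïve UMIs, of which 97.5% and 97.2% were in 1 cell, and 0 in the BLM cells. The cell with the most total UMIs in this class held 167 leukocyte marker UMIs and 115 aerocyte UMIs together. In the other naïve endothelial-like cells leukocyte markers reached at most 52 UMIs.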

How the data were processed

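The files deposited by the authors were raw UMI counts, 1 table for each library, in which a row was a barcode and a column a gene. Version 1.8 of the BD Rhapsody WTA pipeline had made these whole-number counts on GRCm38 with GENCODE vM19, per the file headers, and nothing had been normalised. A gene absent from a table was taken as 0. Kept barcodes had at least 200 genes and no more than 15% of UMIs from mitochondrial genes (BLM 4526 of 4714, naïve 3925 of 4062; 22490782 and 18019004 UMIs before filtering). Doublets were kept, since the rule is on RNA content, and the highest-scoring 3% by Scrublet (scanpy 1.11.5) were left out as an alternative.

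UMIs were summed per class and library, divided by all UMIs of the same cells and compared with exact conditional intervals (scipy 1.17.1); shares have Clopper-Pearson intervals. With 1 library per group, no test was run and no p-value is given. The comparison was tested on simulated data. All simulated cells of a side shared the same expression profile, so the test did not cover spread between cells. Named genes were the 10 highest and 10 lowest ranked genes of each comparison by the interval end nearer to 0, and genes of 37 lists. The members, the rule and the lists were chosen with earlier results of these data known. B-like barcodes had 5 or more UMIs of Cd79a, Cd79b and Ms4a1 and no Cd3e UMI. Positions of genes are from GENCODE on GRCm38. No column of either table was left unmatched to its library.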

Additional observations from a re-analysis of the deposited data

Results flagged for a closer look

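For 3 genes the BLM and naïve libraries differed in opposite directions in the 2 classes of stromal cells, with both intervals on their own side of 0 and both ratios 2-fold or more. The difference between the classes was not tested. Ackr3 had a log2 ratio of BLM over naïve of -1.07 in fibroblast-like cells and 3.73 in endothelial-like cells, and 63.8% of its BLM endothelial-like UMIs came from 1 cell. Without the lymphatic-marker cells and the cell richest in leukocyte markers in each library, a setting chosen after the values were seen, the endothelial-like ratio of Ackr3 was 0.74 (-2.07 to 4.20), from 4 UMIs against 2. Fgl2 had -2.59 in fibroblast-like cells and 2.13 in endothelial-like cells, where 2 BLM UMIs and 1 naïve UMI were left in that setting. In fibroblast-like cells without a Ptprc UMI it was at 0.89. Ptx3 had -3.40 in fibroblast-like cells and, against 0 naïve UMIs and a floor of 3 counts, 2.498 in endothelial-like cells, where its 30 UMIs came from 2 cells. It was at 0.74 without its top cell, and 0 UMIs were left in either library in the setting named above.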

How the results depend on the processing

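Of 1228 values recomputed for 107 named gene ratios under the alternatives, 1204 kept the sign of the ratio, 1051 stayed inside the original counting interval and 172 moved outside it. Lifting the filter on low counts, or keeping only genes listed for both libraries, could not change a ratio, so these totals include values fixed in advance. In the fibroblast-like cells without a Ptprc UMI, 25 ratios moved outside the interval, 4 called ratios changed sign and 24 stayed inside. The 5 called ratios that changed sign were Ctgf, Fgl2, Fos and Inmt in the fibroblast-like cells without a Ptprc UMI (0.24, 0.89, 0.068 and 0.0085) and Acta2 without the contractile-marker and mesothelial-marker cells (-0.28). With 20 or more UMIs and 0.5% as the rule, the fibroblast-like share was 88.9% in the BLM and 85.7% in the naïve library. Without cells holding a Ptprc UMI the stromal share of the BLM library was 0.464%. With the top cell of each gene left out on each side, 98 genes were lower in the BLM fibroblast-like cells and 264 were lower in fibroblast-like than in endothelial-like BLM cells, and with no filter on low counts these were 408 and 920. The cause was not tested. Setting the median log2 ratio to 0 gave 177 genes higher and 199 lower between the libraries, and 563 higher and 365 lower between the classes, against 206, 176, 487 and 442. Counts of called genes were not run where a side fell under 10 cells: fibroblast-like cells without a Ptprc UMI, and endothelial-like BLM cells under the stricter rule or without a Ptprc UMI.

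No paired analysis was possible because each group was 1 library. Depth and number limit the result: 12 naïve fibroblast-like and 8 naïve endothelial-like cells carried 64746 and 52550 UMIs, so a gene with 0 naïve UMIs has only a lower bound.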
